A study of Mus musculus with 8 samples.

Results

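Oxidative phosphorylation genes were described across the ribosome-bound RNA of kidney endothelium in 8 mice. They were taken from the deposited panel by the start of the gene name. The prefixes were Nduf, Uqcr, Atp5, Sdh followed by a to d, and Cox followed by 4, 5, 6, 7 or 8. The rule itself uses no values, but it was set with earlier results of these data known. This gave 85 of 23930 genes, split by prefix into 40 of complex I, 8 of complex II, 8 of complex III, 16 of complex IV and 13 of complex V. The prefixes take in more than subunits: 63 members are core or accessory subunits, 11 are assembly factors that never belong to a finished complex (Ndufaf1 to Ndufaf7 and Sdhaf1 to Sdhaf4), 8 are isoforms of restricted tissues or hypoxia, Atp5s and Atp5sl are other proteins and Atp5c1-ps is a pseudogene. Ndufa4 is counted here with complex I by its name, although its protein is known as a subunit of complex IV. Tests were possible for 81 members. The other 4 (Cox6a2, Cox7b2, Cox8c and Atp5c1-ps) had 0 to 3 reads in every library.

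Mice were labelled SOCS3iKEO or WT and were given an intraperitoneal bolus of lipopolysaccharide (LPS, a bacterial cell wall component that sets off inflammation), 250 µg in 250 µl, or 250 µl of saline, and were killed after 14 hours. There were 2 SOCS3iKEO mice with LPS, 3 WT mice with LPS, 1 SOCS3iKEO mouse with saline and 2 WT mice with saline, each giving 1 library. By the labels' protocols all groups carried an EGFP-tagged ribosomal protein L10a switched on by the tamoxifen-inducible Cdh5-CreERT2 driver of endothelial cells, so that RNA on endothelial ribosomes could be pulled from kidney. The labels do not spell out SOCS3iKEO; Socs3, the gene it names, encodes a feedback inhibitor of cytokine signalling. Strain, age and the sex of each animal are not given.

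Oxidative phosphorylation is the way mitochondria make most of the ATP of a cell. Complexes I and II pass electrons from NADH and succinate to ubiquinone, complex III passes them on to cytochrome c and complex IV to oxygen, and complex V, the ATP synthase, uses the proton gradient that complexes I, III and IV build. Most subunits are encoded in the nucleus and translated on cytosolic ribosomes, while the catalytic core of complex IV, cytochrome b and part of the membrane arm of complex I are encoded in mitochondrial DNA. Endothelial cells rely largely on glycolysis for ATP and are known to use mitochondria also for biosynthesis and redox signalling.

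Libraries held 7093794 to 14877519 reads. Values were deposited as RPM, reads scaled to a common total, and are given here as scaled RPM, which is RPM divided by the trimmed mean of M values (TMM) factor of the library. These factors were 0.671 and 0.709 in SOCS3iKEO LPS, 0.994, 1.07 and 1.01 in WT LPS, 1.25 in SOCS3iKEO saline and 1.26 and 1.25 in WT saline, so the scaling moves with the groups. Socs3 had 20 and 25 reads in SOCS3iKEO LPS libraries, against 118, 17 and 26 in WT LPS libraries, with 2 in the SOCS3iKEO saline library and 9 and 3 in WT saline libraries. The groups under LPS overlap, and since the position of the amplicon and the deleted part are not given, Socs3 does not check the genotype labels. All 16 endothelial markers had reads in every library, with a summed level of 4940 and 6650 RPM in SOCS3iKEO LPS, 7210 to 9060 RPM in WT LPS, 11900 RPM in SOCS3iKEO saline and 12100 and 12900 RPM in WT saline. On scaled RPM this sum was 7350 and 9380 in SOCS3iKEO LPS, 7250 to 8990 in WT LPS, 9520 in SOCS3iKEO saline and 9620 and 10300 in WT saline, so SOCS3iKEO LPS and WT LPS overlap. The endothelial markers split in SOCS3iKEO LPS against WT LPS, with 4 higher (Cdh5, Robo4, Esam and Flt1) and 4 lower of 16 (median log2 fold change -0.06). All 14 markers of proximal tubule, a cell type rich in mitochondria, also had reads in every library, and their summed level was 4400 and 3050 RPM in SOCS3iKEO LPS, 1250 to 2190 RPM in WT LPS, 2640 RPM in SOCS3iKEO saline and 2700 and 2680 RPM in WT saline. Their sum on scaled RPM was 6560 and 4300 in SOCS3iKEO LPS and 1260 to 2180 in WT LPS. It was 2120 in SOCS3iKEO saline and 2140 and 2150 in WT saline. Animal numbers fall into 2 runs, WT saline with SOCS3iKEO LPS and WT LPS with SOCS3iKEO saline, so a shift between runs cannot be told apart from the effect of LPS within a genotype, of genotype within a treatment, or from the difference of the LPS effects, which such a shift would enter from both genotypes. Reads from the Y chromosome were present in WT LPS replicates 2 and 3 and WT saline replicate 2, and near 0 in the other 5 libraries. No SOCS3iKEO library had more than 3 such reads, so their presence partly coincides with genotype and cannot be fully told apart from it.

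The promoters of 3 members are shown because their genes moved in different ways: Ndufaf4 and Uqcrfs1 were higher in SOCS3iKEO LPS than in WT LPS, and Ndufc2 was higher in WT LPS than in SOCS3iKEO LPS and WT saline. The sequences are from RefSeq (GRCm38.p6) and run from 250 to 51 bases before the start of the gene. Ndufaf4 lies at chr4:24897833-24898032 (plus strand), Uqcrfs1 at chr13:30545367-30545566 (minus strand) and Ndufc2 at chr7:97399753-97399952 (plus strand). Capitals mark a match to the motif of NRF1, a known activator of respiratory genes; Ndufaf4 has one from 113 to 104 bases before the start, and the windows of Uqcrfs1 and Ndufc2 have none.
Ndufaf4: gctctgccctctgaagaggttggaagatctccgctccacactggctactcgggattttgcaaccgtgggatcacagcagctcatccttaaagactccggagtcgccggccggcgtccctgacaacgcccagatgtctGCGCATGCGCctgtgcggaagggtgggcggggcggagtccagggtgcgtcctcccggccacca
Uqcrfs1: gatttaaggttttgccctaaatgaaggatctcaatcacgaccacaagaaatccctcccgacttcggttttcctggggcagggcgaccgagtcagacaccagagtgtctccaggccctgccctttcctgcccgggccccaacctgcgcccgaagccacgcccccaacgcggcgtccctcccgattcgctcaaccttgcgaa
Ndufc2: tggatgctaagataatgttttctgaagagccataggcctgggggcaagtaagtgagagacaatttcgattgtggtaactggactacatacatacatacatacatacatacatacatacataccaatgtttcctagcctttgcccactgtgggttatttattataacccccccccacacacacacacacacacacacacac
Promoters were found for 68 of the 85 members, and the 250 bases before the start were searched on both strands. The NRF1 letters (GCGCA, any base, then GCGC) occurred in 10 members (14.7%) and in 4.23% of all 27025 genes with a promoter in the table. CCGGAAG, for the ETS factor GABP, occurred in 13 members (19.1%) and 7.83% of all. AAGATGGC, for YY1, occurred in 2 members (2.94%) and 1.83% of all, and TTCNNNGAA, for STAT factors, in 4 members (5.88%) and 8.13% of all. No match of one motif overlapped a match of another in these members. In SOCS3iKEO LPS against WT LPS, 1 of the 10 members with the NRF1 letters was higher (Ndufaf4) and 2 were lower (Ndufa8 and Ndufa11), and of the 13 with the GABP letters 0 were higher and 2 were lower (Sdhaf2 and Sdhaf3). Of the tested members without these letters, 6 were higher and 15 lower of 57 for NRF1 and 7 and 15 of 54 for GABP, and 50.7% of all tested genes were called in this comparison. A match is a description of the letters and not evidence of binding, and no match says only that the letters are not in this window.

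All oxidative phosphorylation genes together took 1.53% and 1.36% of the reads in SOCS3iKEO LPS libraries, against 1.94%, 1.90% and 1.97% in WT LPS libraries. The share was 2.42% in the SOCS3iKEO saline library and 2.49% and 2.14% in WT saline libraries. As a share of the panel the order SOCS3iKEO LPS, WT LPS, saline held without overlap, and it also held in each of the 5 complexes between SOCS3iKEO LPS and WT LPS. After TMM scaling the summed level of all members was 22856 and 19195 scaled RPM in SOCS3iKEO LPS, 19517, 17841 and 19585 in WT LPS, 19383 in SOCS3iKEO saline and 19739 and 17116 in WT saline, and these ranges overlap. By complex, scaled sums of complexes I and IV overlapped between SOCS3iKEO LPS and WT LPS, while those of complex II (1243 and 1075 in SOCS3iKEO LPS, 1045, 1007 and 1064 in WT LPS), complex III (3394 and 2796, against 2566, 2350 and 2495) and complex V (7130 and 6251, against 5884, 5265 and 6002) were higher in both SOCS3iKEO LPS libraries. The direction of these sums thus turned with the scaling. The median of all tested genes moved by -0.41 (log2) between SOCS3iKEO LPS and WT LPS when TMM scaling was left out, and the member median was -0.54 then, so the members lay 0.09 below all genes on deposited RPM and 0.07 above them on scaled RPM. The fold changes given for single genes are relative to the TMM scaling, under which the median of all tested genes was -0.04 in this comparison. Both scales are relative within a bulk library, so neither the number of endothelial cells nor the RNA per cell is measured. Changes in these and in the RNA of other cells cannot be told apart.

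**Figure D1:**
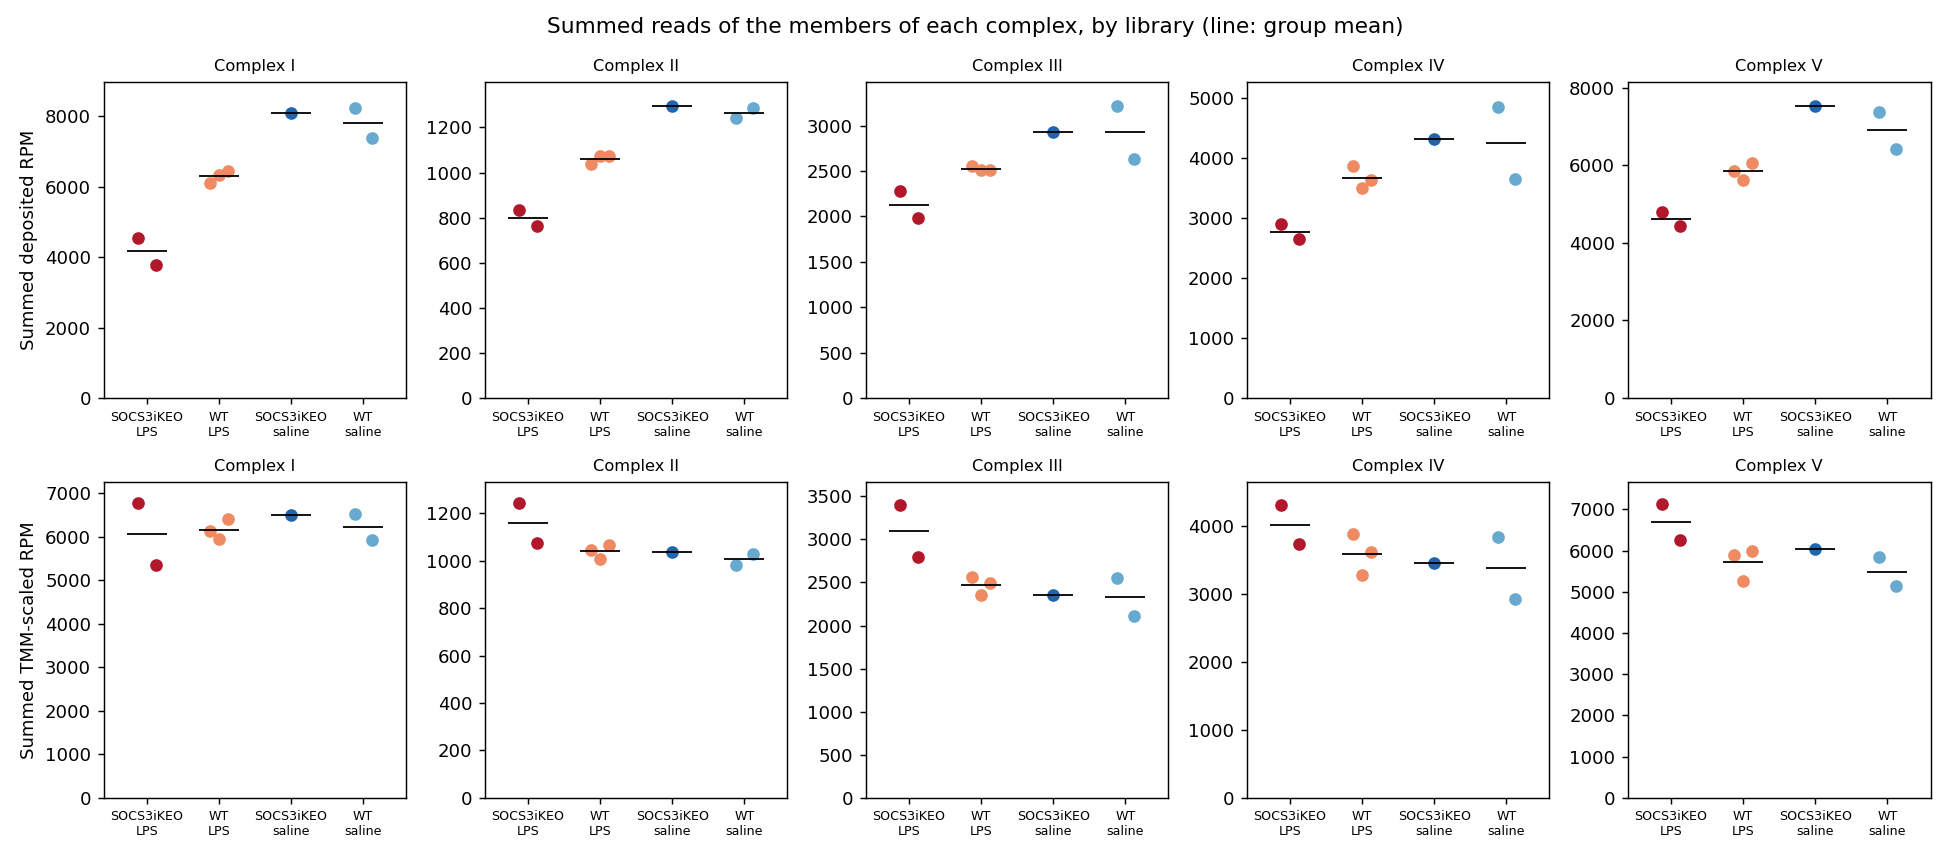
Summed level of the genes of each respiratory complex in each of the 8 libraries, as deposited RPM (upper row) and TMM-scaled RPM (lower row); points are libraries, lines are group means, and every axis starts at 0. On deposited RPM both SOCS3iKEO LPS libraries lie below all WT LPS libraries in every complex, whereas on scaled RPM complex I overlaps between these groups.

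LPS in WT mice changed few members. In WT LPS against WT saline, 1 of 81 rose and 1 fell (2.47%), beside 15.6% of all 12820 tested genes (6.85% higher and 8.79% lower). Calls are at a Benjamini-Hochberg adjusted p under 0.05 from limma, over all tested genes. The median log2 fold change was -0.05 over the members and -0.02 over all genes. Ndufc2, an accessory subunit in the membrane arm of complex I, had 89.9, 120 and 110 scaled RPM in WT LPS mice, against 39.7 and 48.2 scaled RPM in WT saline mice. The groups do not overlap, and the log2 fold change was 1.26 ± 0.20, SE, adjusted p = 0.00511. The call was lost without WT saline replicate 1 (1.12, adjusted p = 0.0847). Atp5s, known as coupling factor B and not a subunit of the ATP synthase in most accounts, had 5.56, 7.22 and 6.76 scaled RPM in WT LPS mice, against 12.6 and 13.3 in WT saline mice, a log2 fold change of -0.90 ± 0.24, SE, adjusted p = 0.0355. The groups do not overlap, but the call was lost when any WT library was left out (adjusted p 0.0648 to 0.196). Without either SOCS3iKEO LPS library, which enters the shared estimate of the spread, 2 members were higher and 4 lower. None of the 11 assembly factors passed, with a median log2 fold change of -0.17. Changes that did not pass included those of Cox8b (-1.25 ± 0.55, SE, adjusted p = 0.156) and Uqcr11 (-0.81 ± 0.34, SE, adjusted p = 0.142). In the same comparison 0 markers were higher and 4 of 14 lower for proximal tubule, 4 of 6 for thick ascending limb (median -1.79), and 3 of 6 for collecting duct. Endothelial markers gave 1 higher and 5 lower of 16, and immune markers 2 higher and 0 lower of 6. Their part in these values was not tested.

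Members of all 5 complexes differed between genotypes under LPS. In SOCS3iKEO LPS against WT LPS, 11 of 81 were higher and 18 lower (35.8%), beside 50.7% of all tested genes (24% higher and 26.7% lower), with a median log2 fold change of 0.03 over the members and -0.04 over all genes. For each of these 29 the 2 SOCS3iKEO LPS libraries lay wholly on one side of the 3 WT LPS libraries. The calls were made on these same libraries, so this separation is no further support. Its share over all tested genes is not given. By complex the counts were 5 higher and 13 lower of 40 in complex I (median -0.19), 1 and 4 of 8 in complex II (-0.48), 2 and 0 of 8 in complex III (0.22), 2 and 1 of 13 in complex IV (0.39), and 1 and 0 of 12 in complex V (-0.28). Split by role, 8 subunits were higher and 10 lower of 63, and 2 assembly factors were higher and 7 lower of 11. In the same comparison 12 of 14 proximal tubule markers were higher and 0 lower (median 2.70). Higher calls also numbered 4 of 4 distal tubule markers (median 2.22), 3 of 6 of thick ascending limb, 4 of 6 of collecting duct, 2 of 6 immune and 3 of 6 mural markers, with 0 lower in each. Of the mural markers Kcnj8 had 1300 and 1050 scaled RPM in SOCS3iKEO LPS, against 213, 48.7 and 80.6 in WT LPS, while Pdgfrb, Rgs5 and Myh11 did not pass. The part of these markers in the differences was not tested. The higher calls depended on single libraries: without SOCS3iKEO LPS replicate 1 there were 2, and without WT LPS replicates 2 and 3 there were 3 and 5. The lower calls numbered 11 without WT LPS replicate 2. With a term for Y-linked reads 2 were higher and 12 lower, and 13 of the 29 calls were kept. Calls lost with this term include Uqcrq, Sdhb, Sdhaf3, Cox4i1, Cox4i2, Cox8b, Ndufaf2, Ndufaf6, Ndufaf7, Ndufa6, Ndufa10, Ndufa11, Ndufb8, Ndufv3 and Atp5g3. With no filter the calls of Cox4i1, Cox8b, Sdhaf3, Ndufv3 and Atp5g3 were among those lost. The losses given below for single genes do not name every alternative. On deposited RPM the split was 2 higher and 39 lower, and with RLE size factors 13 higher and 15 lower.

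**Figure D2:**
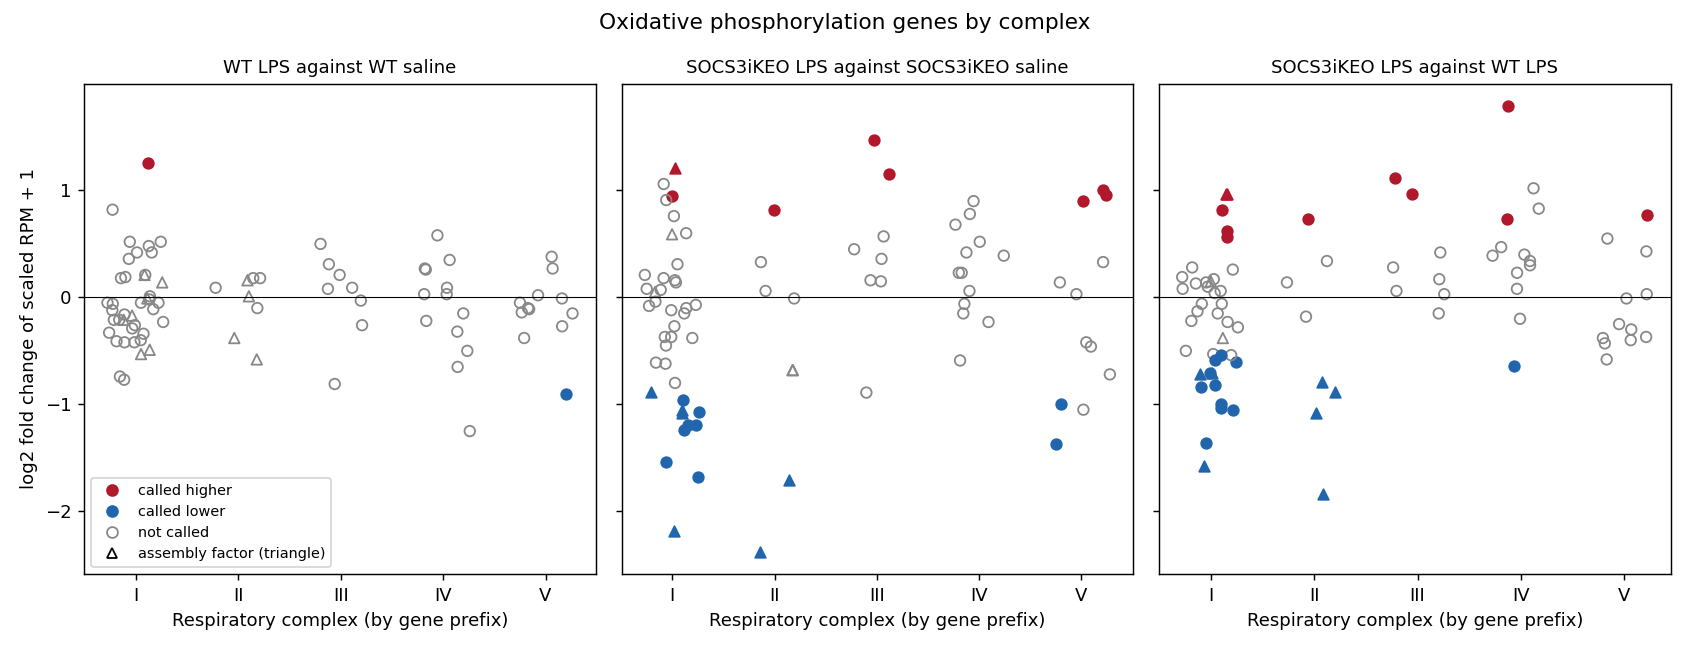
Log2 fold change of scaled RPM + 1 for each of the 81 tested genes, by complex, in WT LPS against WT saline, SOCS3iKEO LPS against SOCS3iKEO saline and SOCS3iKEO LPS against WT LPS; filled points passed the limma test and triangles are assembly factors. In WT LPS against WT saline 2 genes passed, while in SOCS3iKEO LPS against WT LPS most filled points of complexes I and II lie below 0 and those of complex III above it.

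Among the core subunits of complex I, Ndufs8, which carries iron-sulfur clusters towards ubiquinone, had 61.5 and 58.5 scaled RPM in SOCS3iKEO LPS mice, against 123, 115 and 124 in WT LPS mice. The groups are far apart relative to their spread, with a log2 fold change of -1.0 ± 0.17, SE, adjusted p = 0.0015. Ndufs7, which holds the last cluster before ubiquinone, had 41.2 and 34 scaled RPM in SOCS3iKEO LPS mice, against 71, 59.5 and 73.8 in WT LPS mice (-0.84 ± 0.24, SE, adjusted p = 0.0179). The groups do not overlap, but the call was lost without SOCS3iKEO LPS replicate 2 (-0.68, adjusted p = 0.0852) or WT LPS replicate 3 (-0.78, adjusted p = 0.0583). Ndufs1, Ndufs3, Ndufv1 and Ndufv2, further core subunits, had log2 fold changes of 0.26, 0.17, -0.15 and -0.23 and did not pass.

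Of the 25 accessory subunits of complex I, 2 rose and 8 fell, beside 50.7% of all tested genes called in either direction. Ndufa8, a subunit of the intermembrane space side, had 71.2 and 61.1 scaled RPM in SOCS3iKEO LPS mice, against 179, 199 and 139 in WT LPS mice. The difference (-1.36 ± 0.21, SE, adjusted p = 0.000883) was the largest fall of a complex I subunit. Ndufb2 had 11.8 and 15.6 scaled RPM in SOCS3iKEO LPS mice, against 28.3, 26.8 and 32.7 in WT LPS mice (-1.05 ± 0.22, SE, adjusted p = 0.00408). Ndufc2, which rose with LPS in WT, had 49.3 and 53.3 scaled RPM in SOCS3iKEO LPS mice, against 89.9, 120 and 110 in WT LPS mice (-1.03 ± 0.20, SE, adjusted p = 0.00307), a level near the 54 scaled RPM of the SOCS3iKEO saline library. Ndufb3 of the membrane arm had 114 and 94.3 scaled RPM in SOCS3iKEO LPS mice, against 159, 192 and 205 in WT LPS mice (-0.82 ± 0.19, SE, adjusted p = 0.00697). Ndufv3, Ndufa11, Ndufc1 and Ndufa6 had log2 fold changes of -0.71, -0.60, -0.59 and -0.54, and their calls were kept in 6, 10, 12 and 7 of 17 alternatives. Leaving out WT LPS replicate 2 or 3 ended the call of all 4 (Ndufv3 adjusted p 0.0977 and 0.105, Ndufa11 0.0689 and 0.0729, Ndufc1 0.0749 and 0.0546 and Ndufa6 0.102 and 0.0872). The calls also ended without SOCS3iKEO LPS replicate 2 for Ndufv3, Ndufc1 and Ndufa6 (adjusted p 0.284, 0.121 and 0.0939), without SOCS3iKEO LPS replicate 1 for Ndufa11 and Ndufa6 (0.175 and 0.0654), and without either WT saline library for Ndufv3, Ndufa11 and Ndufa6 (0.0553 to 0.0672). Ndufa10 (0.62 ± 0.18, SE, adjusted p = 0.0197) and Ndufb8 (0.56 ± 0.20, SE, adjusted p = 0.0404) rose, and on deposited RPM both were near 0 (0.06 and 0.00). The call of Ndufa10 was lost without SOCS3iKEO LPS replicate 1 (0.50, adjusted p = 0.0847), WT LPS replicate 2 (0.58, adjusted p = 0.0701) or WT LPS replicate 3 (0.59, adjusted p = 0.0603), and that of Ndufb8 without SOCS3iKEO LPS replicate 1 (0.48, adjusted p = 0.131), WT LPS replicate 2 (0.54, adjusted p = 0.107), WT LPS replicate 3 (0.48, adjusted p = 0.121), WT saline replicate 1 (0.56, adjusted p = 0.072) or WT saline replicate 2 (0.56, adjusted p = 0.0727). Among the members of complex I with the highest read counts, Ndufb7 and Ndufb11, accessory subunits of the membrane arm, did not pass (log2 fold changes -0.06 and 0.10). Ndufa4 had 706 and 570 scaled RPM in SOCS3iKEO LPS mice and 660, 528 and 543 in WT LPS mice, which overlap. The falls of Ndufa8, Ndufb2, Ndufb3, Ndufc2 and Ndufs8 passed in all 17 alternatives.

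Of the 11 assembly factors 9 were called (81.8%), with a median log2 fold change of -0.72. Of the 63 subunits 18 were called (28.6%), with a median of 0.06. Over all tested genes 50.7% were called in this comparison (24% higher and 26.7% lower). The difference between these roles was not tested. In complex II all 4 of its assembly factors were lower in SOCS3iKEO LPS mice, and of its 4 subunits 1 was higher and 0 lower. Sdhaf4, which helps flavin-bearing Sdha join Sdhb, had 14.5 and 12.5 scaled RPM in SOCS3iKEO LPS mice, against 44.7, 57.5 and 50.7 in WT LPS mice. Both SOCS3iKEO LPS libraries were far below every other library, and saline mice had 65.8 to 74.4 scaled RPM. The difference on the log2 scale was -1.84 ± 0.20, SE, adjusted p = 0.000195. Sdhaf1, which helps place iron-sulfur clusters in Sdhb, had 6.36 and 6.8 scaled RPM in SOCS3iKEO LPS mice, against 16.6, 13.8 and 14.9 in WT LPS mice (-1.08 ± 0.23, SE, adjusted p = 0.00471). Sdhaf2, needed to attach flavin to Sdha, had 29.1 and 36.4 scaled RPM in SOCS3iKEO LPS mice, against 63.2, 66.7 and 53 in WT LPS mice (-0.88 ± 0.20, SE, adjusted p = 0.00647). Sdhaf3, a partner of Sdhaf1, was low, with 6 and 23 reads in SOCS3iKEO LPS libraries and 53, 53 and 29 in WT LPS libraries, and its call (-0.79 ± 0.30, SE, adjusted p = 0.0499) was kept in 4 of 17 alternatives. It was lost without SOCS3iKEO LPS replicate 1 (-0.46, adjusted p = 0.291), WT LPS replicate 1 (-0.65, adjusted p = 0.112), WT LPS replicate 2 (-0.77, adjusted p = 0.118), WT saline replicate 1 (-0.78, adjusted p = 0.0771) or WT saline replicate 2 (-0.78, adjusted p = 0.077).

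No subunit of complex II was called lower. Sdhb, the iron-sulfur subunit, had 423 and 297 scaled RPM in SOCS3iKEO LPS mice, against 247, 193 and 204 in WT LPS mice (0.73 ± 0.22, SE, adjusted p = 0.0201). The call was lost on deposited RPM (0.16, adjusted p = 0.526) and without SOCS3iKEO LPS replicate 1 (0.47, adjusted p = 0.137), WT LPS replicate 2 (0.66, adjusted p = 0.0716) or WT LPS replicate 3 (0.70, adjusted p = 0.0581). Sdha, the flavoprotein, had 266 and 299 scaled RPM in SOCS3iKEO LPS mice and 253, 261 and 255 in WT LPS mice, and Sdhc and Sdhd, the membrane anchors, had log2 fold changes of -0.18 and 0.34. None of these 3 passed.

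Among complex I assembly factors 3 fell and 2 rose, where 50.7% of all tested genes were called in either direction. Ndufaf3, which acts early on the ubiquinone-binding module, had 14 and 7.5 scaled RPM in SOCS3iKEO LPS mice, against 28.9, 39.9 and 30.6 in WT LPS mice (-1.58 ± 0.28, SE, adjusted p = 0.00174). Ndufaf4, its known partner on that module, moved in the opposite direction, with 82.8 and 95.2 scaled RPM in SOCS3iKEO LPS mice, against 51.4, 39.6 and 44.3 in WT LPS mice (0.97 ± 0.20, SE, adjusted p = 0.00358), and on deposited RPM its fold change was 0.41 (adjusted p = 0.11). Ndufaf2 and Ndufaf7, a late factor and a methyltransferase, fell (log2 fold changes -0.72 and -0.71), the call of Ndufaf2 being lost without WT LPS replicate 2 (-0.72, adjusted p = 0.0506) and that of Ndufaf7 without SOCS3iKEO LPS replicate 2 (-0.58, adjusted p = 0.0664) or WT LPS replicate 2 (-0.69, adjusted p = 0.0609). Ndufaf6 had 26.1 and 16.1 scaled RPM in SOCS3iKEO LPS mice, against 11.4, 8.26 and 10.6 in WT LPS mice (0.97 ± 0.28, SE, adjusted p = 0.0172). Its call was lost on deposited RPM (0.44, adjusted p = 0.189) and without SOCS3iKEO LPS replicate 1 (0.64) or WT LPS replicate 2 (0.85, adjusted p = 0.0641). Ndufaf1 and Ndufaf5 did not pass, with log2 fold changes of -0.38 and 0.15. The falls of Sdhaf4, Sdhaf1, Sdhaf2 and Ndufaf3 passed in all 17 alternatives. In the annotation of GRCm38 (GENCODE M21), exons of these 4 genes overlap exons of a gene on the opposite strand (Gm26524, E130208F15Rik, Cpsf7 and Impdh2), as do those of 29 members in all and of 12 of the 36 called in any comparison. Strand and amplicon positions are not given, so reads of such pairs cannot be told apart.

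**Figure D3:**
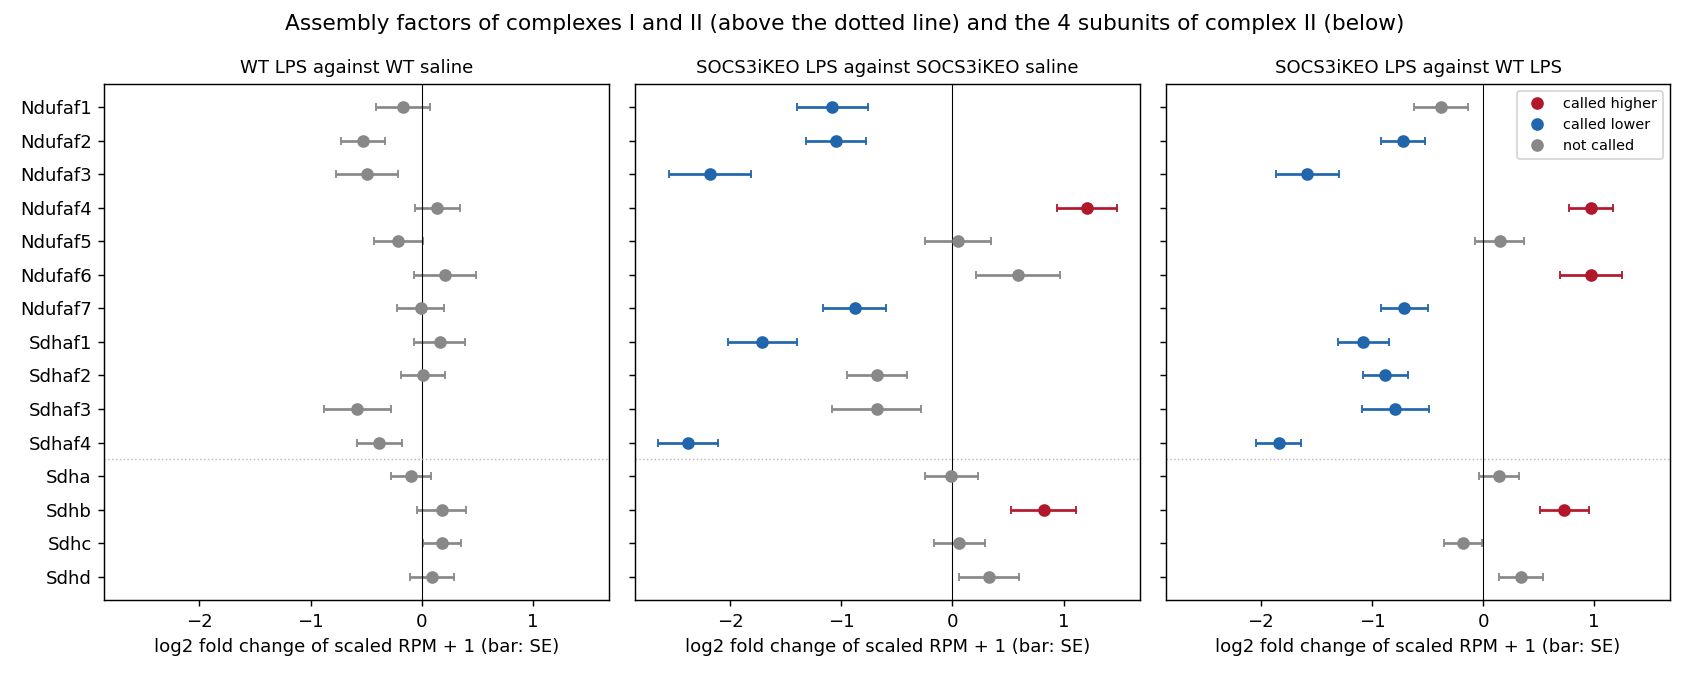
Log2 fold change of scaled RPM + 1 with its standard error for the 11 assembly factors of complexes I and II (above the dotted line) and the 4 subunits of complex II (below it), in WT LPS against WT saline, SOCS3iKEO LPS against SOCS3iKEO saline and SOCS3iKEO LPS against WT LPS. No factor passed in WT LPS against WT saline; Sdhaf4 and Ndufaf3 lie farthest below 0 in the other 2 comparisons, while Ndufaf4 lies above 0.

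In complex III, Uqcrfs1, the Rieske iron-sulfur protein that passes electrons towards cytochrome c, had 417 and 423 scaled RPM in SOCS3iKEO LPS mice, against 236, 162 and 186 in WT LPS mice. Every other library was at or below 236, and the log2 fold change (1.12 ± 0.21, SE, adjusted p = 0.0023) passed in all 17 alternatives and was 0.56 on deposited RPM. Uqcrq, a small subunit near cytochrome b, had 281 and 199 scaled RPM in SOCS3iKEO LPS mice, against 161, 113 and 95.7 in WT LPS mice (0.97 ± 0.26, SE, adjusted p = 0.0119). Its call was lost on deposited RPM (0.40, adjusted p = 0.19) and without SOCS3iKEO LPS replicate 1 (0.72, adjusted p = 0.0937). The other 6 members did not pass, among them Uqcrc1 (log2 fold change 0.03), Uqcr10 (0.28) and Uqcrh (0.42).

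In complex IV, 10 of 13 tested members did not pass. Cox4i1, the main isoform of subunit 4, had 602 and 368 scaled RPM in SOCS3iKEO LPS mice, against 329, 259 and 270 in WT LPS mice (0.73 ± 0.24, SE, adjusted p = 0.0324). Its call was lost on deposited RPM (0.16, adjusted p = 0.579) and without SOCS3iKEO LPS replicate 1 (0.37, adjusted p = 0.241), WT LPS replicate 2 (0.66, adjusted p = 0.0984), WT LPS replicate 3 (0.69, adjusted p = 0.0844), WT saline replicate 1 (0.73, adjusted p = 0.0559) or WT saline replicate 2 (0.73, adjusted p = 0.0569). Cox6a1, the common isoform of subunit 6a, had 1330 and 1250 scaled RPM in SOCS3iKEO LPS mice and 1430, 1390 and 1630 in WT LPS mice, and did not pass (-0.20 ± 0.23, SE, adjusted p = 0.5). Cox7b, Cox6b1 and Cox7a2, further subunits of the finished enzyme, had log2 fold changes of 0.23, 0.30 and 0.08. In complex V the single call was Atp5g3, a gene for the c ring that turns in the membrane, with 1890 and 1260 scaled RPM in SOCS3iKEO LPS mice, against 968, 846 and 903 in WT LPS mice (0.77 ± 0.24, SE, adjusted p = 0.0239). The call of Atp5g3 was lost on deposited RPM (0.20, adjusted p = 0.472), with no filter and with the term for Y-linked reads. It was also lost without SOCS3iKEO LPS replicate 1 (0.47), WT LPS replicate 2 (0.72, adjusted p = 0.0726) or WT LPS replicate 3 (0.77, adjusted p = 0.0553). Atp5b, the catalytic beta subunit, had 2110 and 1960 scaled RPM in SOCS3iKEO LPS mice, against 1780, 1220 and 1230 in WT LPS mice, groups that do not overlap but missed the threshold (0.55 ± 0.24, SE, adjusted p = 0.08). The small membrane subunits Atp5j2 and Atp5k did not pass (log2 fold changes -0.38 and -0.30).

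The isoforms of restricted tissues had at most 86 reads in a library. Cox8b, the muscle isoform of subunit 8, had 52 and 22 reads in SOCS3iKEO LPS libraries, against 21, 4 and 3 in WT LPS libraries, with 47 in the SOCS3iKEO saline library and 86 and 31 in WT saline libraries. As a share of the reads of Cox8a and Cox8b together it was 33.5% and 13.8% in SOCS3iKEO LPS, 10.3%, 2.82% and 2.40% in WT LPS, 37.6% in SOCS3iKEO saline and 26.4% and 14.4% in WT saline. The exact 95% binomial intervals ran from 26.2% to 41.6% and 8.82% to 20.1% in SOCS3iKEO LPS, and the highest WT LPS library had 6.52% to 15.4%, which overlaps that of the lower SOCS3iKEO LPS library. Its call (1.79 ± 0.55, SE, adjusted p = 0.0235) was lost without SOCS3iKEO LPS replicate 1 (0.98, adjusted p = 0.217), WT LPS replicate 2 (1.60, adjusted p = 0.0734) or WT LPS replicate 3 (1.60, adjusted p = 0.0758). Cox4i2, the isoform of subunit 4 known from lung and hypoxia, had 1 and 2 reads in SOCS3iKEO LPS libraries, against 12, 11 and 9 in WT LPS libraries, 7 in the SOCS3iKEO saline library and 4 and 5 in WT saline libraries. It was called lower (-0.64 ± 0.19, SE, adjusted p = 0.0208), but not by DESeq2 (adjusted p = 0.151) nor without SOCS3iKEO LPS replicate 1 (-0.66, adjusted p = 0.0632). Ndufa4l2, induced by hypoxia in other cells, had 0 reads in both SOCS3iKEO LPS libraries, against 6, 6 and 5 in WT LPS libraries, 12 in the SOCS3iKEO saline library and 10 and 26 in WT saline libraries. Counting 3 reads per library as the floor, it was at least 1.1-fold lower than in WT LPS, where it did not pass (adjusted p = 0.0773), and at least 3.27-fold lower than in the SOCS3iKEO saline library. Cox6b2 and Cox7a1 did not pass (log2 fold changes 1.02 and 0.83), with their higher values in SOCS3iKEO LPS replicate 1. Reads of close relatives may be shared where amplicons cannot separate them.

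LPS against saline within SOCS3iKEO gave 8 higher and 15 lower of 81 (28.4%), beside 44% of all tested genes (20.2% higher and 23.9% lower), with a median log2 fold change of -0.01 over the members and -0.08 over all genes. The saline side is 1 library, so its spread is taken from the other groups, and the SOCS3iKEO LPS libraries also enter the comparison with WT LPS. Assembly factors gave 1 higher and 6 lower of 11 (median -0.88), led by Sdhaf4 at 14.5 and 12.5 scaled RPM with LPS, against 74.4 with saline (-2.38 ± 0.27, SE, adjusted p = 0.000356), and Ndufaf3 at 14 and 7.5, against 50.1 (-2.18 ± 0.37, SE, adjusted p = 0.00208). Sdhaf1 had 6.36 and 6.8 scaled RPM with LPS, against 23.8 with saline (-1.71 ± 0.31, SE, adjusted p = 0.00284). Both LPS libraries lie below the saline library for all 3. Complex I subunits gave 1 higher and 6 lower of 32, with Ndufv3, a small subunit of the NADH-binding module, at 135 and 78.1 scaled RPM with LPS, against 332 with saline (-1.68 ± 0.33, SE, adjusted p = 0.00387), and Ndufb3 at 114 and 94.3, against 303 (-1.54 ± 0.26, SE, adjusted p = 0.00192). In complex V the catalytic pair rose: Atp5a1, the alpha subunit, had 808 and 941 scaled RPM with LPS, against 467 with saline (0.90 ± 0.26, SE, adjusted p = 0.0202), and Atp5b had 2110 and 1960, against 1040 (0.96 ± 0.32, SE, adjusted p = 0.036). On deposited RPM neither passed (0.05 and 0.11), and the call of Atp5b was also lost without SOCS3iKEO LPS replicate 1 (0.90, adjusted p = 0.0951), SOCS3iKEO LPS replicate 2 (1.02, adjusted p = 0.0555), WT saline replicate 1 (0.96, adjusted p = 0.0671) or WT saline replicate 2 (0.96, adjusted p = 0.0688). Atp5g3 rose as well (1.00 ± 0.32, SE, adjusted p = 0.0311), a call lost on deposited RPM (0.15, adjusted p = 0.702) and with no filter. It was also lost without SOCS3iKEO LPS replicate 1 (0.69), WT saline replicate 1 (1.00) or WT saline replicate 2 (1.00). Atp5j2, a small membrane subunit, fell (-1.0 ± 0.30, SE, adjusted p = 0.0221), a call lost without SOCS3iKEO LPS replicate 1 (-1.01). Atp5s, which was also called lower in WT LPS against WT saline, had the largest fall of complex V here (-1.37). Its call was kept in 15 of 15 alternatives. Uqcrfs1 had 417 and 423 scaled RPM with LPS, against 151 with saline (1.47 ± 0.28, SE, adjusted p = 0.00331). On deposited RPM this call was lost (0.62, adjusted p = 0.0808). Sdhb had 423 and 297, against 200 (0.82 ± 0.29, SE, adjusted p = 0.0453), a direction that turned on deposited RPM (-0.03). The call of Sdhb was lost without SOCS3iKEO LPS replicate 1 (0.55, adjusted p = 0.144), WT LPS replicate 2 (0.83, adjusted p = 0.0652), WT LPS replicate 3 (0.82, adjusted p = 0.0667), WT saline replicate 1 (0.83, adjusted p = 0.0774) or WT saline replicate 2 (0.83, adjusted p = 0.0781). The higher calls numbered 5 without SOCS3iKEO LPS replicate 1, WT saline replicate 1 or WT saline replicate 2. No member of complex IV passed. Proximal tubule markers gave 7 higher and 0 lower of 14, immune markers 4 higher and 0 lower of 6, and endothelial markers 4 higher and 6 lower of 16, and their part in these members was not tested.

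SOCS3iKEO saline against WT saline gave 0 calls of 81 members with limma, edgeR and DESeq2, beside 0% of all tested genes with limma, and 3 members had an unadjusted p under 0.05. Member log2 fold changes ran from -0.69 to 0.81 with a median of -0.03. With 1 library on the SOCS3iKEO side this does not show that the genotypes were alike.

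The LPS effect in SOCS3iKEO minus that in WT was called for 8 of 81 members, 1 higher and 7 lower (9.88%), beside 18.5% of all tested genes (8.96% higher and 9.5% lower), with a median of 0.01 over the members and -0.01 over all genes. The lower ones were Sdhaf4 (-2.00 ± 0.34, SE, adjusted p = 0.00871), Sdhaf1 (-1.87 ± 0.39, SE, adjusted p = 0.0168), Ndufaf3 (-1.69 ± 0.47, SE, adjusted p = 0.0375), Ndufc2 (-1.33 ± 0.34, SE, adjusted p = 0.03), Cox4i2, Ndufb3 and Ndufs8, and the higher one was Uqcrfs1 (1.16 ± 0.35, SE, adjusted p = 0.0482). For Sdhaf4 and Ndufaf3 the order of the groups was SOCS3iKEO LPS lowest, then WT LPS, then the saline libraries of both genotypes, without overlap. For Ndufc2 WT LPS stood above the other 3 groups, whose means were 51.3 ± 2.86 scaled RPM in SOCS3iKEO LPS (SD, n = 2) and 43.9 ± 6.05 in WT saline (SD, n = 2). For Uqcrfs1 the SOCS3iKEO LPS libraries stood above the rest. Without WT saline replicate 1 none of the 7 lower calls remained, with Sdhaf4 at -1.98 (adjusted p = 0.0588) and Sdhaf1 at -1.70 (adjusted p = 0.0861). Without WT saline replicate 2, WT LPS replicate 2 or WT LPS replicate 3 there were 2 lower calls. The higher calls numbered 5 without WT LPS replicate 1 and 3 without SOCS3iKEO LPS replicate 2. Uqcrfs1 was not called on deposited RPM (0.61, adjusted p = 0.215), nor with no filter, pseudocount 0.1 or edgeR. It was also not called without WT LPS replicate 2 (1.04, adjusted p = 0.105) or WT LPS replicate 3 (1.14, adjusted p = 0.098). The call was lost as well without SOCS3iKEO LPS replicate 1 (1.16), SOCS3iKEO LPS replicate 2 (1.15), WT saline replicate 1 (1.05) or WT saline replicate 2 (1.28). The proximal tubule markers gave 11 higher and 0 lower of 14 in this difference, and their part in it was not tested.

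**Figure D4:**
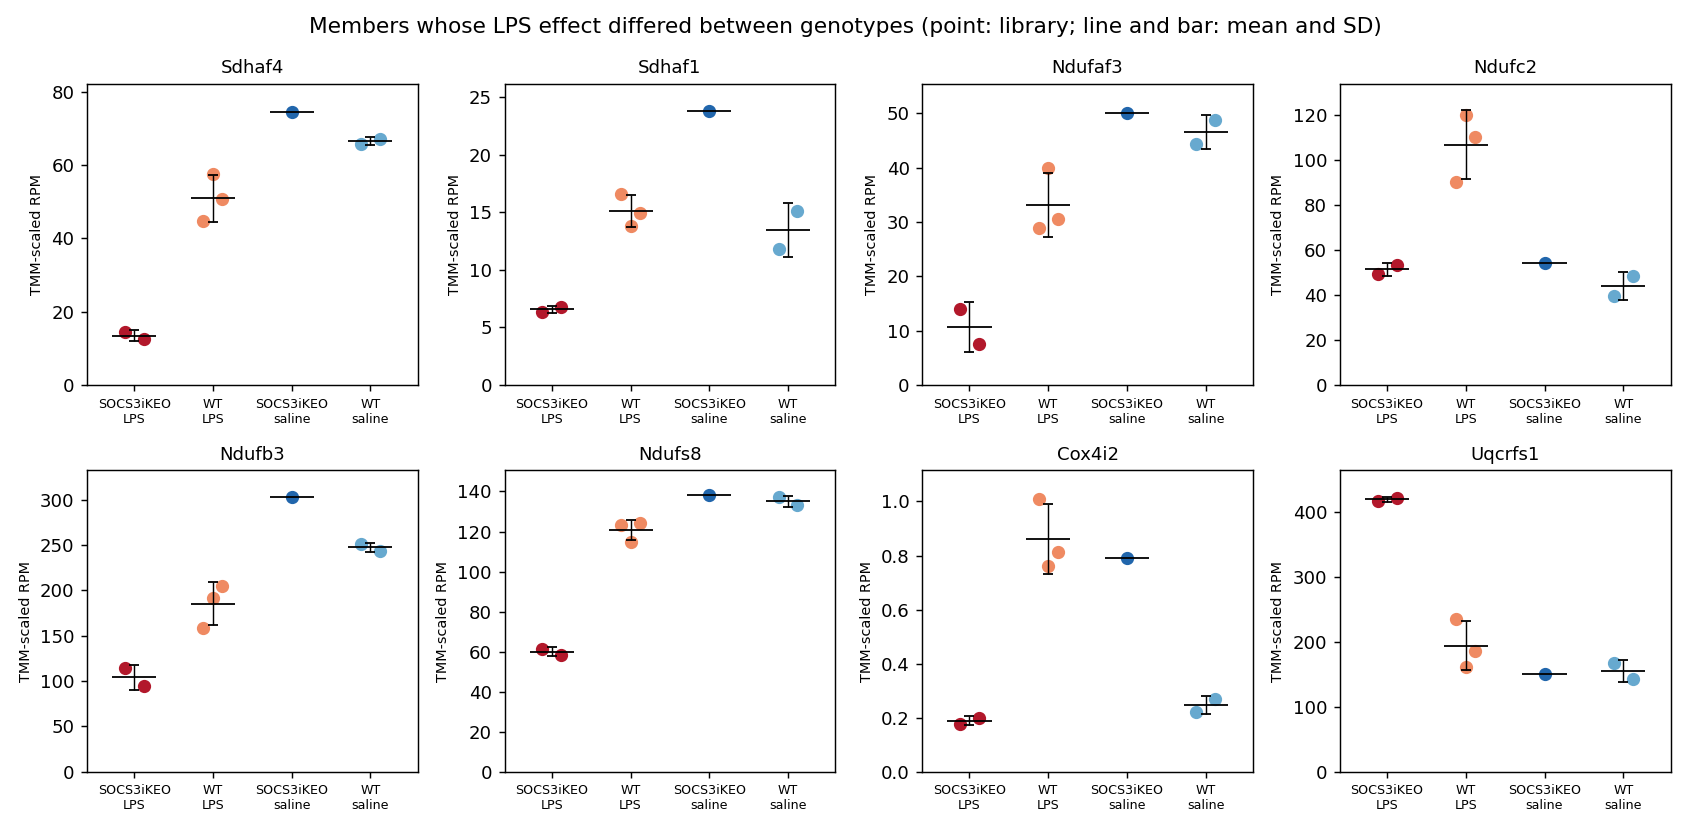
Scaled RPM of the 8 genes whose difference in LPS effect between genotypes passed the test, in each library of the 4 groups; points are libraries, and lines with bars are means with SD (no bar for the single SOCS3iKEO saline library), with axes from 0. Sdhaf4, Sdhaf1, Ndufaf3, Ndufb3 and Ndufs8 are lowest in SOCS3iKEO LPS, Ndufc2 is highest in WT LPS and Uqcrfs1 is highest in SOCS3iKEO LPS; Cox4i2 rests on 1 to 12 reads per library.

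Genes around the complexes were taken from lists of 94 names, of which 65 were in the table and 64 were tested. In SOCS3iKEO LPS against WT LPS 13 were higher (20.3%) and 18 lower (28.1%), shares near those of all tested genes (24% and 26.7%), with a median log2 fold change of -0.22. The counts of the single lists stand beside the same background of 50.7% called in either direction. Assembly factors of complex I outside the prefix gave 0 higher and 4 lower of 8. Tmem126b of the membrane-arm assembly complex had 0.53 and 1 scaled RPM in SOCS3iKEO LPS mice, against 8.42, 12.1 and 8.12 in WT LPS mice (-2.57 ± 0.28, SE, adjusted p = 0.000182), and Ecsit of the same complex had 11.7 and 12.1, against 40.8, 34.2 and 34.2 (-1.53 ± 0.21, SE, adjusted p = 0.000476). Assembly factors of complex III gave 0 higher and 2 lower of 6, namely Uqcc2, needed for cytochrome b, with 34.4 and 47.1 scaled RPM in SOCS3iKEO LPS mice, against 135, 166 and 140 in WT LPS mice (-1.83 ± 0.21, SE, adjusted p = 0.000262), and Bcs1l, which inserts the Rieske protein (-1.32 ± 0.31, SE, adjusted p = 0.00733). Those of complex IV split, with 4 higher and 7 lower of 18. Coa4 had 0.177 and 0.9 scaled RPM in SOCS3iKEO LPS mice, against 12.8, 11.1 and 10.4 in WT LPS mice (-3.05 ± 0.31, SE, adjusted p = 0.000147), and Coa3, which regulates synthesis of the first core subunit, fell too (-1.94 ± 0.20, SE, adjusted p = 0.000149). Cox18, which threads a core subunit into the membrane, had 56.2 and 46 scaled RPM in SOCS3iKEO LPS mice, against 22.7, 12.6 and 11 in WT LPS mice (1.73 ± 0.31, SE, adjusted p = 0.00199), and Cox10, which makes heme O, rose (1.18 ± 0.23, SE, adjusted p = 0.00255).

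Regulators of mitochondrial gene expression gave 5 higher and 4 lower of 11 in SOCS3iKEO LPS against WT LPS, where 50.7% of all tested genes were called. The subunits of GABP rose, Gabpb1 with 311 and 218 scaled RPM in SOCS3iKEO LPS mice, against 68.1, 60.3 and 60.8 in WT LPS mice (2.03 ± 0.20, SE, adjusted p = 0.000148), and Gabpa (1.56 ± 0.24, SE, adjusted p = 0.000989), whose exons overlap those of Atp5j. The mitochondrial RNA polymerase Polrmt (-2.16 ± 0.34, SE, adjusted p = 0.000969) and the nuclear receptor Esrra (-1.66 ± 0.26, SE, adjusted p = 0.00102) fell. Of the tricarboxylic acid cycle 3 of 12 rose and 1 fell, led by Dlst of the oxoglutarate dehydrogenase (1.04 ± 0.23, SE, adjusted p = 0.00513). Vdac1, the outer membrane porin, was the 1 of 4 carriers and porins that rose (0.90 ± 0.23, SE, adjusted p = 0.00942), and none of 4 genes of ATP synthase assembly passed. In WT LPS against WT saline, 2 of the 64 genes rose, Slc25a3, the phosphate carrier (0.83 ± 0.22, SE, adjusted p = 0.0348), and Idh3a of the tricarboxylic acid cycle (0.64 ± 0.18, SE, adjusted p = 0.0402), and Cmc2 of complex IV assembly fell (-1.09 ± 0.30, SE, adjusted p = 0.0386). The 13 subunits encoded in mitochondrial DNA had no rows under the names searched and were not analysed.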

How the data were processed

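Kidney endothelial RNA bound to tagged ribosomes was measured with an Ion AmpliSeq mouse transcriptome panel in 8 mice, 1 library each. The deposited values are RPM made by the authors, scaled to the same total in each library; the submitters' processing notes name mm10 and Transcriptome Analysis Console without a role, and no aligner or counter is given in the sources used here. All values (100%) were whole multiples of 1 read within 0.1 read, which gave reads and depth; edgeR on these reads called 28 of the 81 tested members in SOCS3iKEO LPS against WT LPS, and limma 29. The main test was limma 3.58.1 (R 4.3.3, trend) on log2(TMM-scaled RPM + 1) of the 12820 genes kept by edgeR's filterByExpr (minimum count 10, minimum total 15), with 1 fit of all 8 libraries on 4 group means and Benjamini-Hochberg adjustment over all genes; the threshold was 0.05. Fold changes on this scale understate changes of low genes. Counting intervals and floors cover counting error only. Alternatives were RLE size factors, deposited RPM, no filter, pseudocounts 0.1 and 10, edgeR 4.0.16 and DESeq2 1.42.0 on the recovered reads, a term for Y-linked reads, fits of only the 2 groups compared, and leaving out each library. Members and gene lists were chosen with earlier results of these data known. The named genes are the 3 members of each complex with the highest mean level, up to 3 called members per complex, direction and comparison with the largest log2 fold change, the Sdh subunits, paralogue pairs, and up to 2 called genes per direction in each list outside the prefixes. Other genes named as examples were chosen after their values were seen. 1 gene that this rule names is not reported here. The test was run on simulated data with changes set in WT LPS only, for WT LPS against WT saline. The other comparisons were not checked in this way, and nothing is drawn from that run.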

Additional observations from a re-analysis of the deposited data

Results flagged for a closer look

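The difference between the response to LPS in SOCS3iKEO and that in WT passed the limma test for 8 genes. The difference in log2 fold change, SOCS3iKEO minus WT, was -2.00 for Sdhaf4, -1.87 for Sdhaf1, -1.69 for Ndufaf3, -1.33 for Ndufc2, -1.17 for Cox4i2, -1.11 for Ndufb3, -1.03 for Ndufs8 and 1.16 for Uqcrfs1. These calls were kept in 14 of 15 alternatives for Sdhaf4 and for Sdhaf1, 11 for Ndufs8, 10 for Ndufaf3, 9 for Ndufc2, 7 for Cox4i2, 6 for Ndufb3 and 5 for Uqcrfs1. The SOCS3iKEO saline side is a single library. The runs of animal numbers coincide with this contrast, so a shift between runs and a difference in response cannot be told apart. No group holds 4 or more libraries, so no library was tested for standing apart from its group.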

How the results depend on the processing

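Depth limited Cox4i2, Cox8b, Ndufa4l2 and Sdhaf3, and the single SOCS3iKEO saline library limited 3 of the 5 comparisons. No paired analysis was possible because the labels give no replicate numbers shared between groups. On deposited RPM the member median was -0.34 in WT LPS against WT saline, -0.80 in SOCS3iKEO LPS against SOCS3iKEO saline, -0.54 in SOCS3iKEO LPS against WT LPS and -0.50 in the difference of LPS effects, and Sdhb in SOCS3iKEO LPS against SOCS3iKEO saline turned to -0.03. On deposited RPM the higher and lower calls were 1 and 9, 0 and 45, 2 and 39, and 0 and 20 in these 4 comparisons. In WT LPS against WT saline there were 2 higher with no filter, with DESeq2 and with only the 2 groups, 0 to 2 with a library left out, and 0 lower with no filter, 2 with DESeq2, 4 with only the 2 groups and 0 to 4 with a library left out. In SOCS3iKEO LPS against SOCS3iKEO saline 4 were higher with no filter and 5 to 11 with a library left out. In SOCS3iKEO LPS against WT LPS 7 were higher with no filter, 2 with the Y term, 2 to 15 with a library left out, and 11 to 18 lower with a library left out. The difference gave 3 higher with RLE, 0 with no filter, with pseudocount 0.1 and with edgeR, 2 with pseudocount 10, 4 with DESeq2 and 0 to 5 with a library left out, and 4 lower with no filter and 0 to 8 with a library left out. Of the 29 calls of SOCS3iKEO LPS against WT LPS, 27 were shared with edgeR, 24 with DESeq2, 26 with RLE and 20 with deposited RPM, and 13 were kept with the Y term. The cause of these changes was not tested. Without the SOCS3iKEO saline library its comparisons have no value, and fits of only the 2 groups were not run where a group has 1 library.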
